A study of Homo sapiens with 6 samples.

Results

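The 37 genes of the human mitochondrial genome were examined in J82 bladder cancer cells with and without disruption of FOXC1. They were taken as every row of the count table whose symbol starts with MT-, which gave 37 of 57820 genes, namely 13 coding genes, 2 ribosomal RNA (rRNA) genes and 22 transfer RNA (tRNA) genes. Of these, 30 had enough counts to be tested, among 15647 genes tested in all, and they comprised the 13 coding genes, both rRNA genes and 15 tRNA genes. The clearest difference was in the rRNA genes. MT-RNR2, the large rRNA of the mitochondrial ribosome, was 1.5-fold higher in the libraries labelled FOXC1 KO, while none of the 13 coding genes passed the threshold.

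Mitochondrial DNA is a small circle present in many copies per cell, and its coding genes all specify subunits of the respiratory chain complexes or of ATP synthase. Both strands are transcribed as long precursors that run through many genes, from which the tRNAs are cut out and the coding RNAs and rRNAs are released between them. The heavy-strand precursor carries both rRNAs and all coding RNAs but MT-ND6, which comes from the light-strand precursor together with several tRNAs. Mitochondrial rRNAs and most of the coding RNAs receive short A tails in the organelle, through which capture on poly(T) can retain some of them. Mature tRNAs are short and end in CCA. How fully each kind was retained in these libraries was not tested.

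The genes are so tightly packed that some share bases, and 2 such junctions are printed here. Reads across them overlap both neighbours, and how the counting assigned such reads was not stated. The coordinates and bases are those of the mitochondrial sequence of GRCh37, and the capitals mark the bases that both genes use.

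MT-ATP8 and MT-ATP6, chrM:8507-8592, plus strand: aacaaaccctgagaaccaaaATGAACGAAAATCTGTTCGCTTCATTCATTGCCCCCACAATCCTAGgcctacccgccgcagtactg
MT-ND4L and MT-ND4, chrM:10740-10786, plus strand: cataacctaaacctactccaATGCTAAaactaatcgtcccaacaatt

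The first junction shares 46 bases (8527 to 8572) and the second 7 bases (10760 to 10766). In both, the start codon ATG of the downstream gene lies inside the upstream one. MT-ATP6 and MT-CO3 share a further 1 base. The 5 tRNA genes that the results below turn on are printed next, with the anticodon in capitals. They are the 1 called tRNA gene (MT-TS2), the 2 genes with no counts (MT-TN and MT-TA), the gene with the most counts (MT-TP) and a gene called lower in a few alternative fits only (MT-TL1).

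MT-TS2, serine, chrM:12207-12265, plus strand: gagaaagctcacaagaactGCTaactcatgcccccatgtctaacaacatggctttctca
MT-TN, asparagine, chrM:5657-5729, minus strand: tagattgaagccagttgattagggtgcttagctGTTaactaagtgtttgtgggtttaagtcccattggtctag
MT-TA, alanine, chrM:5587-5655, minus strand: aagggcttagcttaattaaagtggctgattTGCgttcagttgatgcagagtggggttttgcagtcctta
MT-TP, proline, chrM:15956-16023, minus strand: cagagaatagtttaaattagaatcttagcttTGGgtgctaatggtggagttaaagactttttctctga
MT-TL1, leucine, chrM:3230-3304, plus strand: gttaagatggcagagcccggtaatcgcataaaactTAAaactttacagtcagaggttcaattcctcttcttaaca

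J82 is an established line of human bladder cancer cells. The 3 KO libraries came from cells given a lentiviral CRISPR/Cas9 vector against FOXC1, which encodes a forkhead transcription factor, and the 3 control libraries from cells carrying a vector. Per the study's methods the cells were selected with puromycin and the knockout cells were clones, but the sources do not say whether the 3 libraries of a group came from separate cultures or clones, so that p-values measure only the spread between these libraries. All 6 libraries were made from polyadenylated RNA. FOXC1 itself was not lower in the libraries labelled KO. Its CPM, the count scaled to a fixed total per library, was 18.4, 16.9 and 19.3 in the control libraries and 24.1, 22.2 and 21.1 in the KO libraries (log2 fold change 0.30, adjusted p = 0.0127 by the quasi-likelihood test of edgeR). A frameshift need not lower the transcript, so this value does not check the labels. The study examined the protein by western blot, not analysed here. KO here means so labelled. The libraries held 18408134 to 25350908 counts, the fewest in KO 1. The keratin gene KRT8 of epithelial cells was abundant (1039 to 1964 CPM), and UPK3A of differentiated urothelium was at 0. Of 12 listed urothelial or epithelial markers only 7 had enough counts to be tested.

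To see how much of each library the mitochondrial genome supplied, the counts of each class were divided by all counts. The 37 genes together held 2.07%, 2.29% and 2.17% of the control libraries and 2.40%, 2.70% and 2.07% of the KO libraries. The means were 2.18% ± 0.113 and 2.39% ± 0.311 (SD, n = 3), and the groups overlapped because KO 3 lay among the controls. In such bulk samples, a different number of cells with much mitochondrial RNA and a different level in every cell cannot be told apart. Most of this came from the 13 coding genes, which held 1.62%, 1.81% and 1.82% in control and 1.78%, 2.04% and 1.57% in KO. The coding share overlapped too, with the highest and the lowest of the 6 values both in KO. The 2 rRNA genes held 0.436%, 0.473% and 0.342% in control and 0.622%, 0.647% and 0.498% in KO. Here every KO library lay above every control library, with means of 0.417% ± 0.0676 and 0.589% ± 0.0801 (SD, n = 3). The 22 tRNA genes held only 0.00750%, 0.00771% and 0.00758% in control and 0.00502%, 0.00931% and 0.00717% in KO. The control libraries were nearly equal, and the KO libraries spread to both sides of them, KO 1 being the lowest and KO 2 the highest. Counting error was small against these spreads, since the widest 95% Wilson interval reached 0.00700 percentage points to either side for all 37 genes and 0.000376 for the tRNA genes.

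**Figure D1:**
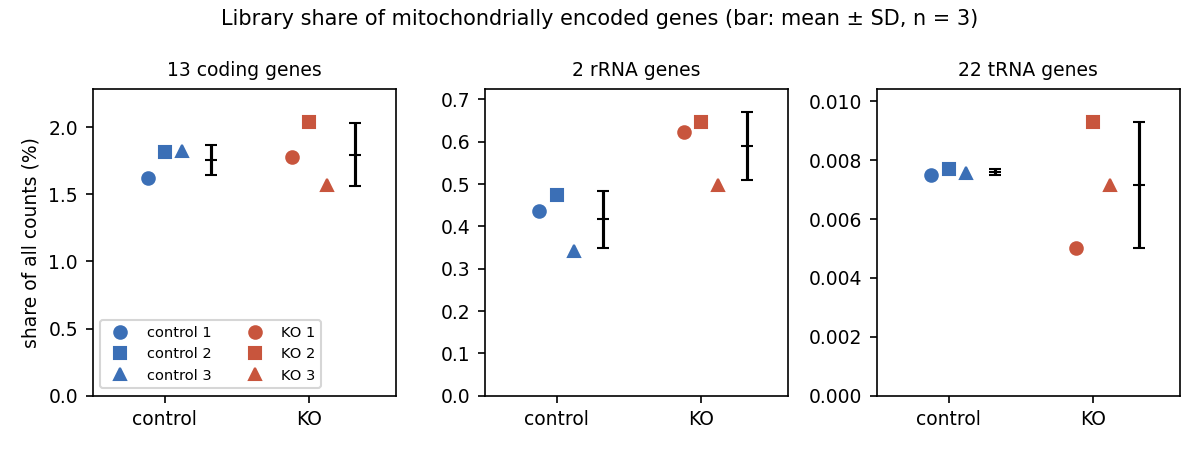
Share of all counts (%, y axis from 0) held by the 13 coding, 2 rRNA and 22 tRNA genes in each control (blue) and KO (red) library, with the mean ± SD of the 3 libraries beside the points. The KO libraries lie above the control libraries for the rRNA genes (0.498% to 0.647% against 0.342% to 0.473%) and overlap them for the coding and tRNA genes.

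Each gene was then tested over the whole table with edgeR's quasi-likelihood test, and called when its Benjamini-Hochberg adjusted p was under 0.05 and its fold change over 1.3. Of the 30 tested mitochondrial genes 2 were called, MT-RNR2 and MT-TS2, both higher in KO and neither lower. Over all tested genes 16.0% were called, 7.57% higher and 8.39% lower, so that the share of called mitochondrial genes, 6.67%, was below that of the table as a whole. By adjusted p alone 3 of the 30 passed, against 29.4% of all tested genes, the third being MT-ND2. Control and KO libraries were fully separated in CPM for 2 of the 30, MT-RNR2 and MT-ND2, against 41.3% of all tested genes.

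MT-RNR2, the 16S rRNA at the catalytic core of the mitochondrial ribosome, stood at 3097, 3054 and 2450 CPM in control and at 4360, 4835 and 3668 CPM in KO. The lowest KO library lay above the highest control library. The log2 fold change, 0.58 (SE 0.09), passed the test (adjusted p = 1.71e-05, edgeR quasi-likelihood test). Whichever library was left out, the gene was called, with log2 fold changes from 0.48 to 0.68. MT-RNR1, the 12S rRNA of the small mitochondrial ribosomal subunit, stood at 1349, 1624 and 912 CPM in control and at 1865, 1666 and 1323 CPM in KO. Its groups overlapped, with control 3 the lowest of the 6 libraries and KO 3 below 2 of the 3 controls. Its log2 fold change of 0.32 (SE 0.26) did not pass the test (adjusted p = 0.439, edgeR), and it was 0.12 without control 3.

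Set against the coding genes, MT-RNR2 was higher as well. It had 18.7, 17.1 and 13.7 counts per 100 counts of the 13 coding genes in control and 24.6, 23.6 and 23.3 in KO. The 3 KO libraries were close to each other (23.8 ± 0.652, SD, n = 3) and all above the more scattered controls (16.5 ± 2.56). MT-RNR1 had 8.14, 9.07 and 5.09 counts per 100 coding counts in control and 10.5, 8.13 and 8.41 in KO, again with overlap. Control 3 was the lowest library for both rRNA genes. MT-RNR2 was also higher against MT-ND1, the coding gene next to it on the heavy strand with only MT-TL1 between them, at 598, 521 and 427 counts per 100 counts of MT-ND1 in control and 737, 658 and 663 in KO. With 3 libraries against 3, an exact permutation test of such a ratio cannot go below p = 0.1, so none of these ratios can pass a threshold by itself.

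Nuclear-encoded RNAs without a poly(A) tail, which poly(T) capture should leave behind, were higher in KO in part. RN7SL2, the RNA of the signal recognition particle, stood at 4.68, 6.22 and 5.66 CPM in control and at 6.68, 7.61 and 10.2 CPM in KO and was called (log2 fold change 0.57, adjusted p = 0.00271, edgeR). SNORD3A, the U3 small nucleolar RNA, was called as well (0.758, 0.696 and 0.275 against 2.82, 0.951 and 1.27 CPM, log2 fold change 1.49, adjusted p = 0.00911, edgeR). RN7SK, which controls transcription elongation, was not (8.42, 7.74 and 4.13 against 12.3, 6.94 and 6.80 CPM). As for the rRNA genes, control 3 was the lowest control library for RN7SK and SNORD3A. In all, 5 of 9 listed RNAs of this kind matched the table and 3 were tested, with 2 higher and a summed level of 10.2 to 14.8 CPM in control and 15.8 to 22.1 CPM in KO. Replication-dependent histone RNAs, which also lack the tail, went the other way, with 0 of 20 tested genes higher and 5 lower (summed level 365 to 388 CPM in control and 292 to 296 CPM in KO). Over all tested genes 7.57% were called higher and 8.39% lower, and 3 tested genes are too few for a share. The part of the recovery of RNAs without a long A tail in the rRNA result was not tested.

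Among the coding genes the levels differed far more between genes than between groups. Per kilobase of gene, MT-CO2 was the highest in control (3285 ± 109 CPM per kb, SD, n = 3) and MT-ND1 the lowest (585 ± 37.7), a 5.62-fold range although all but MT-ND6 derive from one strand. MT-CO3 (2642), MT-ATP6 (2357), MT-CO1 (2331) and MT-ATP8 (2017) followed MT-CO2, all of them subunits of complex IV or ATP synthase. The 7 complex I genes and MT-CYB of complex III lay lower, from MT-ND4 at 1637 CPM per kb down to MT-ND1. MT-RNR2 took the sixth place in control (1839 CPM per kb) and the third in KO (2750), the largest shift of any gene in this order. Neighbours in the order were often not separable, since the control values of 9 of the 14 neighbouring pairs overlapped. MT-CO2 and MT-CO3 were each separated from the gene below them, and so was MT-ND6 from MT-ND1. The top places of MT-CO2 and MT-CO3 and the last 4 places were held by the same genes in KO. How reads that match several places or overlap neighbouring genes were counted was not stated. Its part in this order was not tested.

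**Figure D2:**
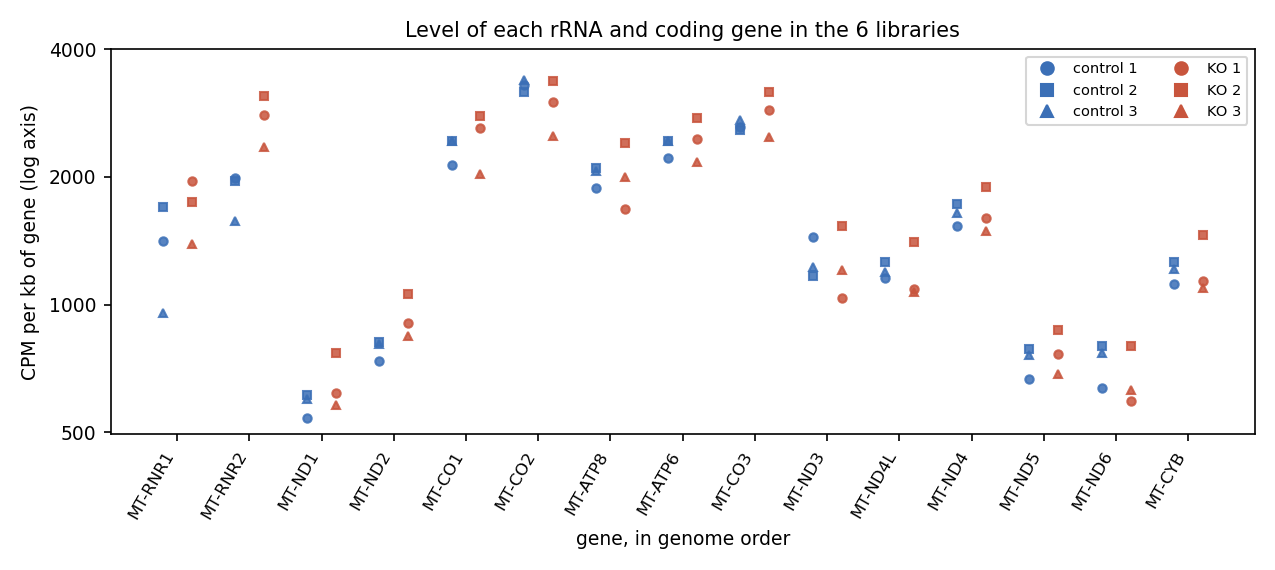
Level of the 2 rRNA and 13 coding genes in each library, in CPM per kilobase of gene on a log axis, with genes in genome order and control (blue) left of KO (red). MT-RNR2 and MT-ND2 are the genes whose KO points all lie above their control points, and MT-CO2 has the highest and MT-ND1 the lowest mean level in control.

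Of the 13 coding genes 0 were called by edgeR, with 1 at an unadjusted p under 0.05 and 0 called by DESeq2. Their log2 fold changes ran from -0.15 to 0.25 with a median of 0.041, against a median of -0.00084 over all tested genes, and 9 lay above and 4 below 0. These signs depended on KO 2, the KO library with the highest coding levels, since the median was -0.080 without it.

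In complex I, which takes electrons from NADH, MT-ND2 showed the largest difference. It stood at 768, 850 and 840 CPM in control and at 943, 1102 and 881 CPM in KO, with no overlap, KO 3 being the closest to the controls. Its log2 fold change of 0.25 (SE 0.08, adjusted p = 0.0156, edgeR) was a 1.19-fold difference, under the fold threshold, and the adjusted p was 0.145 without KO 2. MT-ND1, at 518, 586 and 573 CPM in control and 592, 735 and 554 in KO, overlapped through KO 3 (log2 fold change 0.16, adjusted p = 0.143, edgeR). The other heavy-strand members of the complex had log2 fold changes between -0.023 and 0.069. MT-ND4 ranged from 2114 to 2385 CPM in control and from 2056 to 2603 in KO (log2 fold change 0.021), and its overlapping neighbour MT-ND4L from 343 to 375 and from 318 to 417 (-0.019). MT-ND5, the longest of the coding genes at 1812 bases, ranged from 1213 to 1425 and from 1246 to 1582 CPM (0.069), and MT-ND3 from 404 to 500 and from 358 to 532 CPM (-0.023). The control range of MT-ND4, MT-ND4L and MT-ND3 lay inside the KO range, and that of MT-ND5 began just below it. MT-ND6, the light-strand member, stood at 333, 418 and 404 CPM in control and at 312, 419 and 330 in KO (log2 fold change -0.12, adjusted p = 0.364, edgeR).

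MT-CYB, cytochrome b of complex III, ranged from 1276 to 1436 CPM in control and from 1250 to 1663 in KO (log2 fold change 0.041). In complex IV, which passes electrons to oxygen, the 3 subunits of the catalytic core did not have the same sign. MT-CO1 stood at 3295, 3746 and 3742 CPM in control and at 4017, 4284 and 3136 in KO (0.085), with KO 3 below all controls and the other KO libraries above them. MT-CO3 ranged from 2026 to 2136 and from 1948 to 2490 CPM (0.11). MT-CO2 stood at 2254, 2169 and 2318 CPM in control and at 2050, 2302 and 1712 in KO (log2 fold change -0.15, adjusted p = 0.181, edgeR). It had the lowest log2 fold change of the 13, and KO 2 lay inside the control range. The ATP synthase pair, MT-ATP6 (1508 to 1656 against 1475 to 1872 CPM) and MT-ATP8 (389 to 435 against 348 to 497 CPM), had log2 fold changes of 0.059 and 0.0064.

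**Figure D3:**
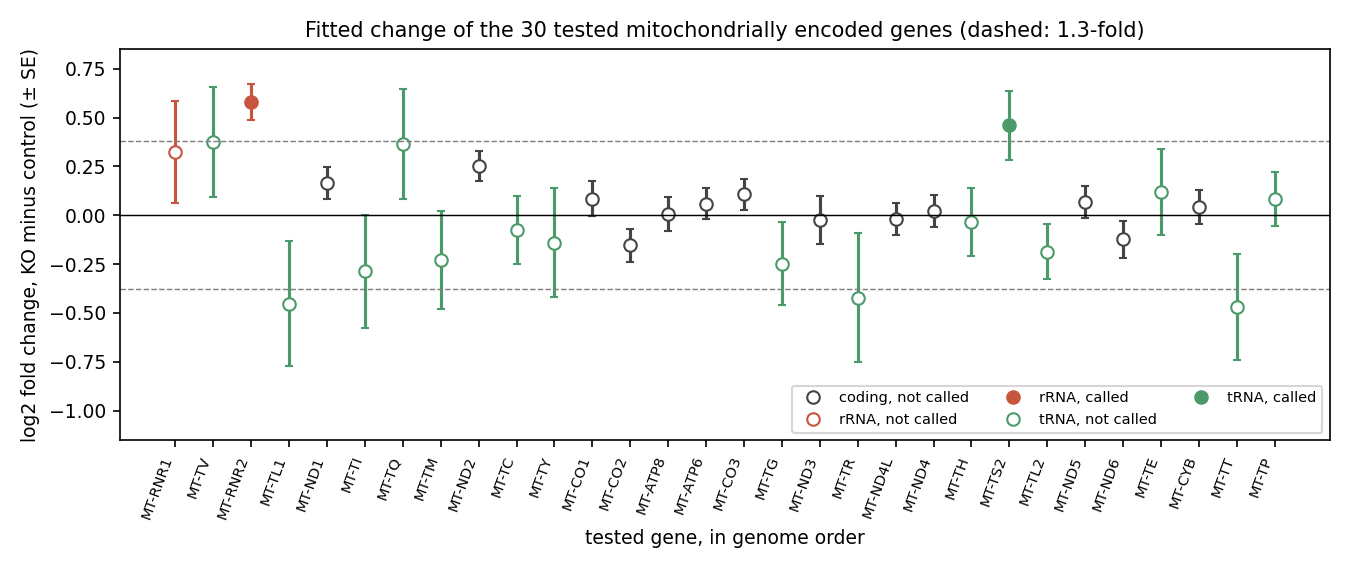
Fitted log2 fold change (KO minus control, ± SE) of the 30 tested genes in genome order, with coding genes in black, rRNA genes in red and tRNA genes in green, filled where called and open where not, and dashed lines at 1.3-fold. MT-RNR2 (0.58) and MT-TS2 (0.46) are filled, and the coding genes lie between -0.15 and 0.25.

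Taking the sum of the 13 coding genes as the whole sets aside the library differences that they share, and leaves the balance among them. The balance between complexes was nearly equal, with complex I at 35.3% ± 0.613 of the coding counts in control and 35.8% ± 1.21 in KO (SD, n = 3), complex IV at 45.3% ± 0.858 and 44.8% ± 1.87, complex III at 7.82% ± 0.177 and 7.79% ± 0.423, and ATP synthase at 11.6% ± 0.115 and 11.6% ± 0.322. The groups overlapped for all 4. Within complexes, 3 of the 13 genes had shares with no overlap. In CPM, an unlike measure, 41.3% of all tested genes had none. MT-ND2 held 4.64%, 4.75% and 4.69% in control and 5.31%, 5.38% and 5.60% in KO, and MT-ND1 held 3.13%, 3.27% and 3.20% and then 3.33%, 3.58% and 3.52%. MT-CO2 held 13.6%, 12.1% and 12.9% in control and 11.5%, 11.2% and 10.9% in KO, the only 1 of the 3 that was lower. Against MT-CO1, MT-CO2 had 68.4, 57.9 and 61.9 counts per 100 in control and 51.0, 53.7 and 54.6 in KO, while MT-CO3 had 62.3, 54.1 and 57.1 and then 56.1, 58.1 and 62.1, with overlap. MT-ND6 had 27.5, 29.4 and 29.2 counts per 100 of MT-ND5, its neighbour on the other strand, in control and 22.5, 26.5 and 26.5 in KO, again with no overlap. The strand setting of the counting was not stated, so reads of heavy-strand and light-strand RNA across MT-ND6 cannot be told apart.

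MT-RNR2, MT-ND1 and MT-ND2 lie next to each other in the order of the heavy strand, apart from tRNA genes, and each had a positive log2 fold change of at least 0.16. Over the 2 rRNA and 12 coding genes of that strand, the log2 fold change ran down with position (Spearman's rho -0.61, Pearson's r -0.70, n = 14 genes). Among the 12 coding genes alone the coefficients were -0.39 and -0.44. The genes share the same 6 libraries and one precursor, so these are descriptions, and the rRNA genes carried much of the trend.

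The 22 tRNA genes, 59 to 75 bases long, are shorter than or about as long as the 75-base reads, and their counts were low. MT-TP had the most, at 24.8, 18.9 and 19.9 CPM in control and 17.6, 28.0 and 21.2 in KO, from 324 to 707 counts. MT-TC (9.35 to 18.2 CPM), MT-TL2 (5.43 to 9.66) and MT-TY (2.66 to 7.41) followed, and MT-TP, MT-TC and MT-TY are encoded on the light strand. A further 5 genes (MT-TF, MT-TW, MT-TS1, MT-TD and MT-TK) had at most 16 counts in any library and were not tested. Only MT-TN and MT-TA were at 0 in all 6 libraries, where the limit that 0 counts allows is 0.118 to 0.163 CPM, 3 counts of the total.

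Of the 15 tested tRNA genes 1 was called higher and 0 lower by edgeR, 1 had an unadjusted p under 0.05, and DESeq2 called 0. MT-TS2, which reads 2 of the serine codons, stood at 2.67, 3.19 and 2.79 CPM in control and at 2.66, 4.92 and 4.12 in KO, from 49 to 124 counts. KO 1 lay just below the lowest control and the other KO libraries above the highest. Its log2 fold change of 0.46 (SE 0.18, adjusted p = 0.0487, edgeR quasi-likelihood test) was at the edge of the threshold, and DESeq2 gave an adjusted p of 0.190. The call was also lost when control 1, control 3, KO 2 or KO 3 was left out, with the log2 fold change at 0.26 without KO 2. The other 14 ranged from -0.47 (MT-TT) to 0.37 (MT-TV). Above 0 were MT-TV, MT-TQ (0.36), MT-TE (0.12) and MT-TP (0.083). Below 0 were MT-TL1 (-0.45), MT-TR (-0.42), MT-TI (-0.29), MT-TG (-0.25), MT-TM (-0.23), MT-TL2 (-0.19), MT-TY (-0.14), MT-TC (-0.077), MT-TH (-0.036) and MT-TT. MT-TL1, which follows MT-RNR2 directly on the heavy strand, stood at 3.57, 4.75 and 4.87 CPM in control and at 1.3, 4.60 and 3.40 in KO. It was not called (adjusted p = 0.343, edgeR), but a fit over all genes, low counts included, gave an adjusted p of 0.0433 (edgeR), and 3 tRNA genes, MT-TL1, MT-TM and MT-TG, were called lower without KO 2, and MT-TL1 stood at -0.14 without KO 1.

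KO 1 stood apart from the other KO libraries in its short mitochondrial genes. Of the 20 tRNA genes with counts, 15 had their lowest CPM of all 6 libraries in KO 1. The tRNA genes summed to 28.3 counts per 10000 coding counts there, against 45.6 and 45.7 in the other KO libraries and 46.2, 42.6 and 41.6 in control. The tRNA total of KO 1 was thus low against its own coding genes and not only against other libraries. Coding genes showed a like order by length. Relative to the mean of the other KO libraries, the 3 coding genes under 500 bases had a median log2 ratio of -0.39 in KO 1, and the 5 over 1000 bases one of -0.072. MT-ATP8, of 207 bases, had 20.8 counts per 100 counts of MT-ATP6 in KO 1 and 25.8 to 28.0 in the other 5 libraries. Over the 13 coding genes the log2 ratio of KO 1 correlated with log10 length at r = 0.73 (Spearman's rho 0.59), and the 3 control libraries had r of -0.36, 0.30 and 0.37 in the same measure. KO 2 and KO 3 had -0.64 and -0.69, but each is compared with a mean that includes KO 1. Nuclear genes were compared as a deviation of log2 CPM from the mean of the 6 libraries. Those up to 100 bases had a median of -0.12 in KO 1 and of -0.053 to 0.12 in the other 5 libraries. Those over 100 and up to 250 bases had one of -0.17 in KO 1 and of 0.012 to 0.12 in the other 5. Those over 250 and up to 500 bases had one of 0.10 in KO 1. Without KO 1 the same 2 mitochondrial genes were called, MT-RNR2 at 0.56 and MT-TS2 at 0.64, and the mean tRNA share was then higher in KO, by 0.000640 percentage points. The part of gene length in the low counts of KO 1 was not tested.

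**Figure D4:**
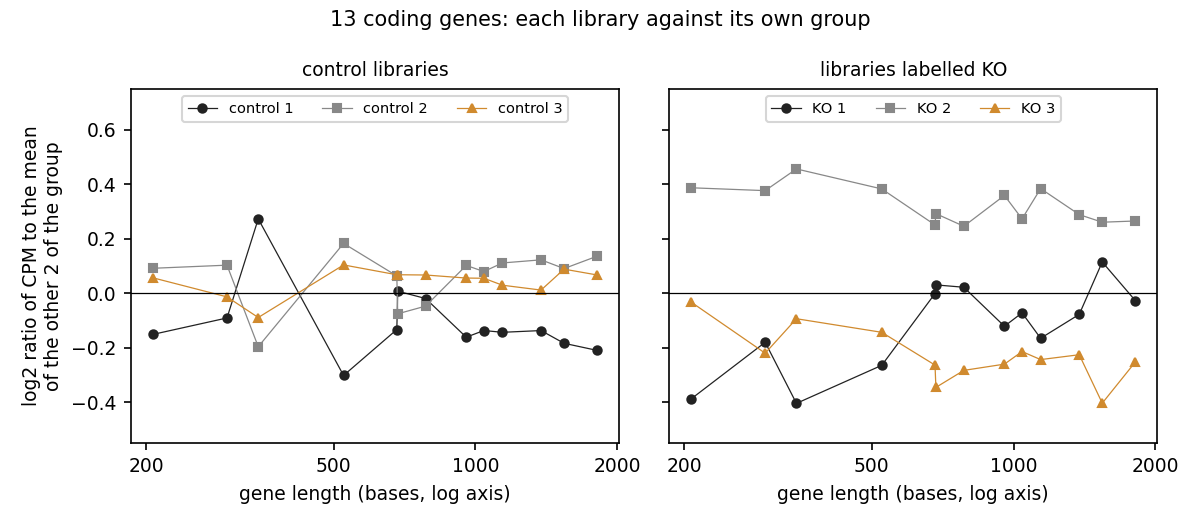
Log2 ratio of the CPM of each of the 13 coding genes in 1 library to the mean of the other 2 libraries of its group, against gene length on a log axis, for control and KO in separate panels. KO 1 lies well below 0 for the shortest genes (median -0.39 under 500 bases) and near 0 for the longest (-0.072 over 1000 bases).

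Because fragments of mitochondrial DNA have been copied into nuclear chromosomes, a read from a mitochondrial gene can match a nuclear place as well. Of the 16495 windows of 75 bases in the mitochondrial sequence, 2383 (14.45%) had a perfect copy in a nuclear chromosome of GRCh37. Of these, 1970 (82.67%) lay in one segment, chr1:564464-570304, which copies mitochondrial bases 3914 to 9755. MT-TN, printed above, was the only gene with a copy of every window across it, and it had no counts. MT-TA had a copy of 52.45% of its windows and no counts either, while MT-TS1 with the same 52.45% had 4 to 10 counts. The 8 tRNA genes with no copied window, MT-TP and MT-TS2 among them, had a median of 84.9 counts per library, and the 10 with more than 35% of windows copied one of 13.4. Single genes departed from this order, for MT-TC (42.86% copied) had 172 to 460 counts and MT-TY (36.43%) 49 to 187, while MT-TW (4.93%) had at most 16 and MT-TF (13.1%) at most 11. How the counting treated reads with several matches, or reads that overlap neighbouring genes, was not stated. Its part in these low counts was not tested. MT-RNR2 had few copied windows (3.98%) and MT-RNR1 more (28.4%). The coding genes were unequal too, with 41.77% of windows copied in MT-CO1, 31.63% in MT-ND2, 24.27% in MT-CO2 and 19.42% in MT-ND1. No window was copied in MT-ND3, MT-ND4L, MT-ND4 and MT-CYB.

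The table also held 394 genes annotated as nuclear copies, of which 311 were at 0 in every library, 6 were tested and 0 were called (0 also at an unadjusted p under 0.05). The 3 with the most counts were compared with their mitochondrial counterparts. MTCO1P12 had 5.10 to 5.57 counts per 100 counts of MT-CO1 in the 6 libraries, with log2 fold change 0.14 (adjusted p = 0.383, edgeR). MTCO3P12 had 1.37 to 1.97 per 100 counts of MT-CO3 (log2 fold change -0.10) and MTND4P12 0.667 to 1.28 per 100 counts of MT-ND4 (-0.23), both lowest in KO 1. Their counterparts MT-CO3 and MT-ND4 had log2 fold changes of the other sign, 0.11 and 0.021. Adding the copies to their mitochondrial counterparts left the same count of 2 called genes.

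Most proteins of the respiratory chain are encoded in the nucleus, and their RNAs were compared with the mitochondrial ones. The nuclear subunits of complexes I to V mostly had negative log2 fold changes. Of 80 tested, 64 lay below 0, with a median of -0.16. Most of these differences were small, for 9 were called lower and 1 higher (12.5% called, against the 16.0% of all tested genes). Over all tested genes 8.39% were called lower and 7.57% higher, so the pooled share hides that the calls here were nearly all lower. An unadjusted p under 0.05 was reached by 41 of the 80, and the share of all tested genes at that threshold was not counted. Complex IV had the lowest median, -0.26, with all 12 of its tested nuclear subunits below 0. Of these 4 were called lower (33.3%, against 8.39% of all tested genes). Complex I had a median of -0.13 (37 tested, 3 lower and 1 higher), complex II -0.19 (4 tested, 0 called), complex III -0.13 (9 tested, 1 lower) and ATP synthase -0.18 (18 tested, 1 lower). COX6C of complex IV stood at 198, 234 and 205 CPM in control and at 145, 167 and 166 in KO (log2 fold change -0.41, adjusted p = 0.000103, edgeR). COX6A1 (-0.40) and COX5B (-0.39) of the same complex were called, as was COX7B (-0.38), named here after its values were seen. UQCRB of complex III stood at 329, 341 and 332 CPM in control and at 228, 255 and 248 in KO (-0.46). In UQCRB and the 3 named complex IV genes the groups were separate, as they were in 41.3% of all tested genes. NDUFB9 (-0.43), NDUFA10 (-0.41) and NDUFB3 (-0.40) of complex I and ATP5ME of ATP synthase (-0.42) fell likewise. These calls sat close to the 1.3-fold threshold. Without KO 1 complex IV had 0 called genes in place of 4, but COX6C (-0.36), COX6A1 (-0.37) and COX5B (-0.33) kept adjusted p of 0.00194, 0.00115 and 0.00226 (edgeR) and came short of the fold alone. Complex IV had 2 without control 2, and 2 with a trend on exonic length removed, an alternative chosen after seeing the data. The ATP5ME call was lost without control 1 (adjusted p = 0.129, edgeR) and without KO 1 (log2 fold change -0.28). The median over all nuclear subunits was -0.12 without KO 1. KO 1 had the lowest summed CPM of every complex, for complex IV 1868 against 2130 and 2073 in the other KO libraries and 2348 to 2480 in control.

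Few of the nuclear genes that make, process and translate mitochondrial RNA were called, against 16.0% of all tested genes. The counts at an unadjusted p given below have no such share beside them. By adjusted p alone, a stricter measure, 29.4% of all tested genes passed. POLRMT, the mitochondrial RNA polymerase, stood at 24.0, 18.9 and 18.5 CPM in control and at 26.0, 27.9 and 22.8 in KO (log2 fold change 0.32, adjusted p = 0.0156, edgeR), under the fold threshold. Without control 2, control 3 or KO 2 its adjusted p was 0.0695, 0.0946 or 0.104 (edgeR). TFAM, which packages mitochondrial DNA and activates its promoters, had a log2 fold change of 0.20 (65.8 to 73.5 against 72.3 to 86.6 CPM, adjusted p = 0.04997, edgeR), with an adjusted p under 0.05 in only 3 of 16 alternatives (0.0154 to 0.279). The promoter factor TFB2M had one of 0.072. LRPPRC, which stabilises the coding RNAs, had one of -0.10. Of the lists, 0 of 22 genes of mitochondrial DNA transcription and replication were called (8 at an unadjusted p under 0.05), 0 of 18 of RNA stability and decay (6) and 0 of 23 of tRNA charging (5), with medians of -0.028, -0.016 and 0.0096. Of 17 genes of tRNA processing and modification 7 had an unadjusted p under 0.05 and 12 lay above 0, with a median of 0.12. Their summed level was 634, 634 and 625 CPM in control and 693, 706 and 678 CPM in KO, with no overlap. Of these genes 1 was called, ELAC2, which trims the 3′ ends of tRNA precursors. It stood at 96.3, 90.0 and 88.4 CPM in control and at 124, 125 and 116 in KO (log2 fold change 0.41, adjusted p = 5.57e-05, edgeR). Every KO library lay above every control, and groups were separate in 41.3% of all tested genes. Of 75 mitochondrial ribosomal protein genes, whose products assemble on the 2 rRNAs, 1 was called higher, MRPS24 (0.45), and 0 lower, with 20 at an unadjusted p under 0.05 and a median of 0.0077. The MRPS24 call was lost without control 2 (0.33, adjusted p = 0.0591, edgeR), and the list had 2 genes higher without control 1 or KO 3. Of 82 cytosolic ribosomal protein genes 3 were higher and 1 lower (median 0.071).

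Of 15 tested regulators of mitochondrial biogenesis 2 were called (13.3%, against 16.0% of all tested genes), in opposite directions. PPARGC1A, a coactivator that promotes mitochondrial biogenesis, fell from 39.3, 40.3 and 41.4 CPM to 29.0, 23.8 and 26.0 (log2 fold change -0.63, adjusted p = 1.41e-06, edgeR). MYC, which drives growth and also mitochondrial genes, rose from 49.6, 45.9 and 47.2 CPM to 81.2, 79.4 and 77.4 (0.74, adjusted p = 5.36e-09, edgeR). Of 18 stress response genes, DDIT3 (-0.91) and HSPE1 (-0.48) fell and CHAC1 (0.47) rose, a share (16.7%) near that of all tested genes, and of 16 genes of the membranes, import and matrix, SLC25A4, an ADP/ATP carrier, fell (-0.49). Over all 284 tested nuclear genes of the mitochondrial lists 5 were higher and 13 lower (6.34% called, against 16.0% of all tested genes), with a median of -0.035.

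**Figure D5:**
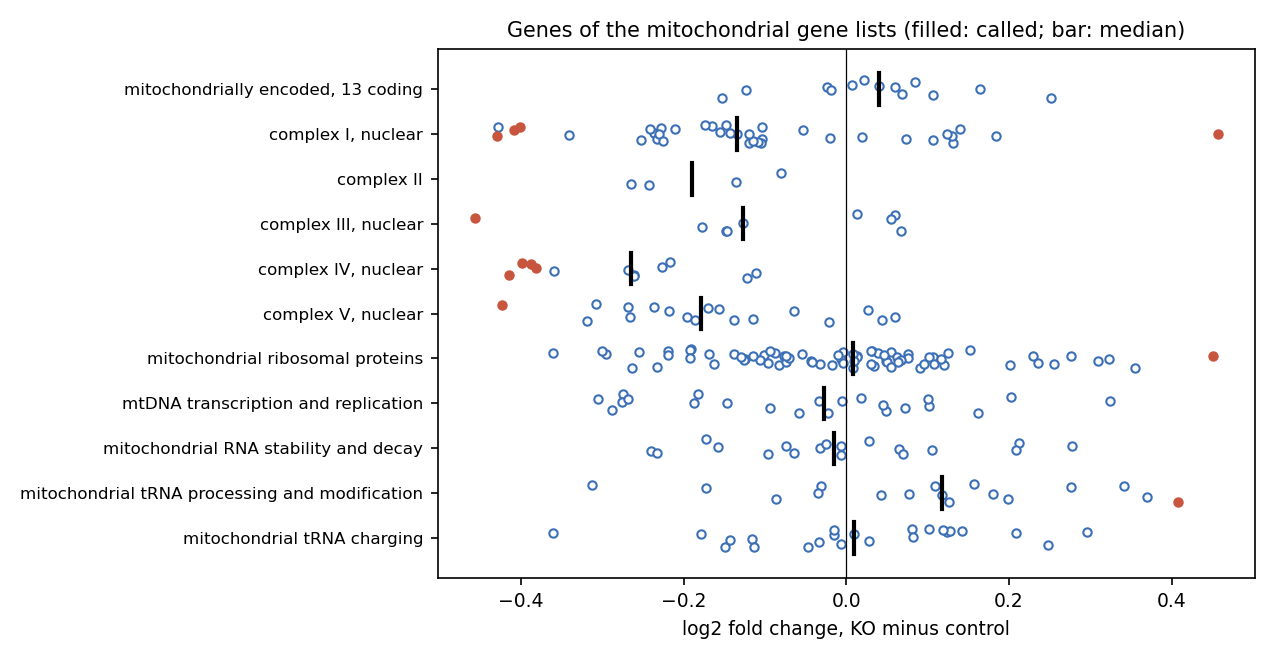
Log2 fold change (KO minus control, x axis) of each tested gene of the 13 mitochondrial coding genes and of 10 lists of nuclear genes, filled where called, with a black bar at the median and vertical scatter only to separate points. The medians of the nuclear subunits of complexes I to V lie between -0.26 and -0.13, and that of the 13 coding genes is 0.041.

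Some markers of the cells differed between the groups. Of 12 urothelial or epithelial markers 7 were tested, and 6 of these were called lower in KO. The 12 summed to 3178 to 4000 CPM in control and 2487 to 2764 CPM in KO. Of 6 mesenchymal markers 2 were called higher and 1 lower. Over all tested genes 7.57% were called higher and 8.39% lower. Of 6 immune markers 2 were tested and 0 called, with CD3E at 0. Of 6 endothelial and blood markers 1 was tested, CDH5, at 0, 0 and 0.0393 CPM in control and 0.978, 0.714 and 1.11 CPM in KO. It passed the count filter only through the KO libraries, so no support is drawn from its call. The nuclear retained RNAs MALAT1 and NEAT1 were not called (log2 fold change -0.21 and -0.39). The part of these differences in the mitochondrial results was not tested.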

How the data were processed

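RNA-seq of J82 cells (3 control and 3 FOXC1 KO libraries, paired reads of 75 bases) was examined through the raw count per gene that the authors had deposited. Per the study's methods and the labels, the authors aligned reads to hg19 with STAR, converted them with Samtools and assigned them to the genes of the GENCODE release its methods name with featureCounts of Subread. Versions of these tools, strand setting and the mitochondrial sequence of the index were not given in the sources used here. Nor was the handling of reads with several matches or of reads that overlap neighbouring genes.

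All 57820 rows entered the library totals of 18408134 to 25350908 counts. Symbols and positions were read from GENCODE models on GRCh37 (55538 identifiers, 96.05%, matched), and positions assume its mitochondrial sequence of 16569 bases. Genes were filtered with filterByExpr, normalized with TMM and tested in edgeR 4.0.16 (R 4.3.3) by the quasi-likelihood F test in its robust form, with group as the only term. Standard errors were derived from the F statistic. CPM used the TMM-scaled library sizes, and shares used the plain totals. Wilson intervals and the floor of 3 counts cover counting error only. Perfect nuclear copies were searched on both strands for every window of 75 bases. Anticodons were located as the known triplet after a T in the best-paired stem-loop. The procedure was tested on simulated data.

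Groups came from the sample titles. The members, gene lists and tests were chosen with earlier results of these data known. All coding, rRNA and tested tRNA members were to be named, with the 3 called genes of smallest p per nuclear complex or list, TFAM, POLRMT, TFB2M, LRPPRC, FOXC1 and the 3 nuclear copies with the most counts. Alternatives were DESeq2 1.42.0, RLE size factors, library size alone, totals without mitochondrial genes, no count filter, a minimum mean of 50 counts, all libraries thinned to the smallest one, nuclear copies added, a replicate block, each library left out, adjusted p alone, and a loess trend on exonic length (span 0.3, genes of at least 200 bases), the last chosen after seeing the data.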

Additional observations from a re-analysis of the deposited data

How the results depend on the processing

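MT-RNR2 was called in every alternative fit, with log2 fold changes from 0.57 to 0.62 apart from single libraries left out. The number of mitochondrial genes called higher was 1 with DESeq2, library size alone, totals without mitochondrial genes, a mean of at least 50 counts or thinning, and 1 to 2 with a library left out. The number called lower was 1 with no count filter and 1 with the replicate block, and 0 to 3 with a library left out. By adjusted p alone 2372 genes were higher and 2233 lower in the whole table, and 27 and 52 among the nuclear mitochondrial genes. With the fold threshold kept, the 5 higher and 13 lower of these were 4 to 9 (9 without control 1) and 8 to 16 (8 without KO 1) with a library left out, and their median log2 fold change was -0.068 to -0.032.

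The median of the 13 coding genes was -0.080 to 0.11 with a library left out, below 0 without control 1 or KO 2. The difference in mean share was -0.0798 to 0.156 percentage points for the coding genes and -0.00150 to 0.000640 for the tRNA genes. Signs of genes that were not called also turned. MT-ATP8 was at -0.0032 with library size alone, -0.0069 with a mean of at least 50 counts and -0.0073 with the replicate block. With a library left out the log2 fold change was -0.73 to 0.082 for MT-TM, -0.32 to 0.12 for MT-TC, -0.46 to 0.14 for MT-TY, -0.0061 to 0.20 for MT-CO1, -0.13 to 0.12 for MT-ATP8, -0.028 to 0.14 for MT-ATP6, -0.60 to 0.0061 for MT-TG, -0.19 to 0.095 for MT-ND3, -0.16 to 0.045 for MT-ND4L, -0.080 to 0.086 for MT-ND4, -0.16 to 0.18 for MT-TH, -0.024 to 0.14 for MT-ND5, -0.017 to 0.32 for MT-TE, -0.098 to 0.11 for MT-CYB and -0.12 to 0.21 for MT-TP. The cause was not tested.

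The labels number the replicates in both groups. Taken over all tested genes, same-numbered libraries did not deviate together (r -0.027, -0.072 and 0.050). A correlation over all genes cannot exclude a batch that acts on some of them. Control 3 and KO 3 were each the lowest of their group for both rRNA genes. Whether same-numbered libraries were handled together was not tested. With the replicate block MT-TL1 was called lower (-0.51, adjusted p = 0.00716, edgeR), and MT-RNR1 had a log2 fold change of 0.35 (adjusted p = 0.000153, edgeR), under the fold threshold. Replicates were distinct libraries (chi-square per gene 2.73 to 9.15 within groups). The tRNA counts, with 7 of 22 genes untested, limit what could be seen there, and with the trend on length removed, an alternative chosen after seeing the data, MT-RNR2 was at 0.62.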
